A study of Mus musculus with 6 samples.

Results

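Macc1, the receptor Met and the genes that make and activate its ligand Hgf were followed in T1 and T2 cells. The 10 members were taken by symbol from the deposited table of 24129 gene names, and all 10 were found there. They are the regulator Macc1, the receptors Met and Mst1r, the adaptor Gab1, the ligand Hgf, the activating proteases Hgfac, St14 and Hpn, and the protease inhibitors Spint1 and Spint2. Both populations descend from 4T1GFP cells, a GFP-tagged mouse mammary carcinoma line that was injected into BALB/c mice and recovered from the primary tumor. T1 cells (named 4T1A in the labels) had low GFP, attached with an epithelial shape and were described as aggressive. T2 cells (4T1NA) were round and only loosely attached and were described as less aggressive, and the study's text gives them a high GFP level. By the study's methods, both were sorted on GFP from a culture of tumor fibroblasts that tumor cells had overgrown, and both were then kept in DMEM/F-12 with serum. T2 cells were passaged without trypsin, so the population and this handling cannot be told apart. RNA of 3 replicates of each population, called independent in the series text, was sequenced. Whether they were separate cultures is not stated, and if they were not, p-values measure only the spread between these samples. The parental 4T1GFP line was not analysed here.

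Hgf is secreted as an inactive single chain, usually by stromal cells, and becomes a ligand of Met only after a serine protease cuts it. Hgfac (the secreted Hgf activator), St14 (matriptase) and Hpn (hepsin, like matriptase anchored in the membrane) can make this cut. Spint1 and Spint2, also known as HAI-1 and HAI-2, are membrane-bound Kunitz-type inhibitors that hold these proteases in check. Met is a receptor tyrosine kinase of epithelial cells that drives growth and migration, Mst1r (Ron) is its closest relative, and Gab1 is the docking protein that carries much of the signal of active Met. MACC1 was described in colon cancer as a gene that raises transcription of MET.

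Macc1 and St14 were far higher in T1 cells, Gab1 was moderately higher, Spint2 was slightly higher and Spint1 was lower, while Met was at nearly the same level in both populations. Hgf and Hpn had no read in any of the 6 libraries, and Mst1r had 1 read in all of them together. The libraries held between 18133227 and 20839686 reads on genes. Values are normalized counts, which are reads divided by a size factor of each library, and 1 read is worth 0.928 to 1.06 of them. The comparison took in 11514 genes whose average over all 6 libraries reached 10 normalized counts. It used limma on log2(normalized count + 1), and log2 fold changes, T1 over T2, are in that unit, in which low genes appear to change less than they do. Of the members, 6 entered it, and Macc1 entered through its T1 values alone. An adjusted p-value under 0.01 was found for 5 of them, 4 higher and 1 lower in T1 cells, where 49.5% of all genes compared did so in either direction. With a log2 fold change above 2 as a further filter, 2 members passed, Macc1 and St14, against 8.37% of all genes. Macc1 was a candidate gene of the study under these same thresholds in these libraries, so its pass was known in advance. The T1 and T2 values of 5 members did not overlap, against 68.1% of all genes compared. In 4 members all T1 values were above all T2 values (34.2% of all genes) and in 1 all were below (33.9%). The median log2 fold change was 0.99 over the 6 members and -0.01 over all genes compared. The members were chosen with earlier results of these data known, so these counts and this median only describe them.

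**Figure D1:**
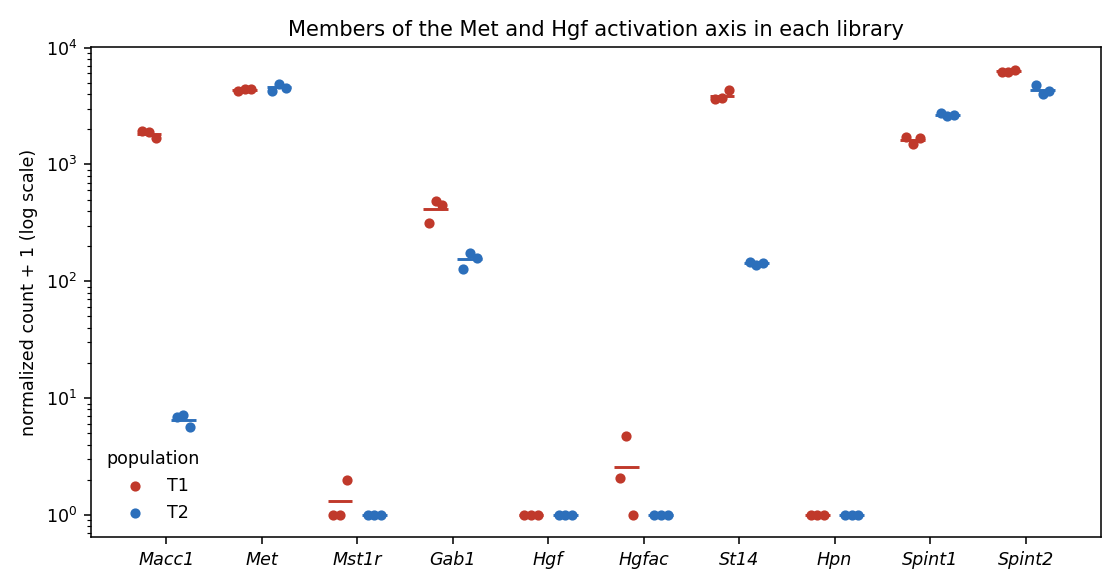
Normalized count plus 1 (log axis) of the 10 members in each library, with T1 in red and T2 in blue; points are libraries and horizontal lines are group means. Macc1 and St14 are far apart between the populations, Met overlaps, and Hgf and Hpn lie at the bottom of the axis in all 6 libraries.

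Macc1 (ENSMUSG00000041886.7) lies on chromosome 12 of mm10, on the plus strand, from 119314270 to 119469987. Its normalized counts were 1923, 1875 and 1696 in T1 replicates 1, 2 and 3 and 5.88, 6.14 and 4.64 in T2 replicates 1, 2 and 3. The T2 values rest on 5 or 6 reads a library. The log2 fold change was 8.13 (95% interval 7.75 to 8.52, adjusted p = 5.1e-10, limma), larger in size than that of 99.7% of the genes compared. Macc1 was on the study's list of candidate genes, which was drawn from these same libraries, so its difference is not independent evidence. Separately, the study reported more Macc1 protein in T1 than in T2 cells by western blot. In bulk RNA, fewer cells that express a gene and less RNA of it per cell cannot be told apart.

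Met (ENSMUSG00000009376.15) lies on chromosome 6, on the plus strand, from 17463800 to 17573980. It had 4238, 4378 and 4390 normalized counts in T1 replicates 1, 2 and 3 and 4279, 4844 and 4546 in T2 replicates 1, 2 and 3. The lowest T2 library lay among the T1 libraries, so the groups overlapped. Means were 4335 ± 84.8 (T1) and 4556 ± 283 (T2; SD, n = 3 each). The log2 fold change was -0.07 (adjusted p = 0.42, limma; standard error 0.07). Its 95% interval ran from -0.23 to 0.09, which is from 14.8% lower to 6.56% higher in T1 cells. In the same libraries the ratio of the group means of Macc1 was 329.8. Only 8.77% of the genes compared had a smaller fold change in size than Met.

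The promoter sequences of Macc1 and Met are shown because the RNA of these genes differed so unequally, and those of Spint1 and Spint2 because these inhibitors of the same proteases moved in opposite directions. Each is the 250 bases before a RefSeq start site in GRCm38.p6, written 5′ to 3′ on the strand of the gene. Capitals mark matches on either strand to GGGCGG (the GC box bound by Sp1), TGANTCA (AP-1), CACCTG (an E-box) and AACCNGGTT (grainyhead), and no matches of different motifs overlapped. The windows are chr12:119443160-119443409 for Macc1, chr6:17463707-17463956 for Met, chr2:119237110-119237359 for Spint1 and chr7:29281978-29282227, on the minus strand, for Spint2. The Macc1 window lies before an internal start, within the annotated span of the gene, and the Met window runs across the first annotated base of the gene. Sequence before the first annotated base of Macc1 (119314270) was not examined, so the Macc1 window is not matched to the other windows. The RefSeq start used for Spint2 lies 65 bases from the nearest annotated transcript start.
Macc1: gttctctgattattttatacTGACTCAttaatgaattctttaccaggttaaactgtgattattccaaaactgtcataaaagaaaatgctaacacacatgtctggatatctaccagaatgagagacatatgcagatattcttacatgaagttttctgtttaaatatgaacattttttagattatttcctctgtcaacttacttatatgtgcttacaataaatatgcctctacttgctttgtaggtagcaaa
Met: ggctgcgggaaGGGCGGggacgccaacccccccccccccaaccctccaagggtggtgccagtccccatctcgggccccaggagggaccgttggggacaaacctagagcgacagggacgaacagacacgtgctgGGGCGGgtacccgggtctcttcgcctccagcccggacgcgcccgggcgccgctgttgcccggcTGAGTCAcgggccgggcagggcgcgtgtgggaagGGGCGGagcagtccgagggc
Spint1: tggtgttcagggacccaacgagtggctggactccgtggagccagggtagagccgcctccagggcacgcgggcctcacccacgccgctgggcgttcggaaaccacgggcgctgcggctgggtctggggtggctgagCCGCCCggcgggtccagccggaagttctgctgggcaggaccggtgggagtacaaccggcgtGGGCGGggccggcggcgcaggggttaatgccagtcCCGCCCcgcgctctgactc
Spint2: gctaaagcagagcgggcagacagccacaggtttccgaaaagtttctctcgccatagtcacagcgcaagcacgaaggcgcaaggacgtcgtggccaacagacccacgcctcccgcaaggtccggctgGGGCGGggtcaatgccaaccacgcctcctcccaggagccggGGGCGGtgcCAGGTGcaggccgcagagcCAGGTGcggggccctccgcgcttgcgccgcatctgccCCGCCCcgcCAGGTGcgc

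The Macc1 window held no CG dinucleotide, as did 7.87% of the 32851 promoters of the same length, and its GC content was 30.0%. The Met window held 24 CG dinucleotides, the Spint1 window 26 and the Spint2 window 24, against a median of 6 over all promoters, and their GC content was 74.0%, 72.8% and 69.6%. The Macc1 window held a single motif match, an AP-1 match beginning 230 bases before the start. The Met window held 1 AP-1 match, beginning 54 bases before the start, and 3 GC boxes. Spint1 and Spint2 each had 3 GC boxes, and Spint2 also had 3 E-box matches. Over all promoters, 6.75% held an AP-1 match, 32.7% a GC box, 17.2% an E-box and 0.241% a grainyhead match. These matches describe the letters of the windows and not binding. Promoters of Gab1, Hgf, Hgfac, Hpn and Mst1r were also in the table of sequences, and that of St14 was not analysed here.

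The ligand and 1 of the 3 activating proteases were not detected. Hgf (chromosome 5, 16553495 to 16620152) and Hpn (chromosome 7, 31098725 to 31115290) had 0 reads in every library. The exons of Hgf share 484 bases with Gm43489, annotated on the same strand, and how the counting treated reads of shared bases is not given in the sources used here. A count of 0 allows up to 3 reads, which is 2.78 to 3.17 normalized counts or 0.144 to 0.165 RPM (reads scaled to a common library total) depending on the library, and these limits cover counting error only. Hgfac (chromosome 5, 35041509 to 35048461) had 1, 4 and 0 reads in T1 replicates 1, 2 and 3 and 0 reads in the T2 libraries, so no fold is given. Mst1r (chromosome 9, 107906873 to 107920383) had 1 read in T1 replicate 3 and 0 reads in the other 5 libraries. Met was thus the only receptor of this family with more than 1 read in a library. The ligand of Mst1r, Mst1 (macrophage stimulating protein), is a gene of the list of matriptase substrates below and is named here after its values were seen. It had 10, 10 and 29 reads in T1 replicates 1, 2 and 3 and 2, 4 and 2 in T2 replicates 1, 2 and 3, below the filter.

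St14 (ENSMUSG00000031995.9), matriptase, lies on the minus strand of chromosome 9 from 31089402 to 31131853, and it was the only one of the 3 activating proteases with more than 4 reads in a library. It had 3595, 3672 and 4331 normalized counts in T1 replicates 1, 2 and 3 and 145, 137 and 142 in T2 replicates 1, 2 and 3. All T1 libraries lay far above all T2 libraries. Means were 3866 ± 405 (T1) and 141 ± 3.90 (T2; SD, n = 3 each), which differ by a factor of 27.3. The log2 fold change was 4.76 (95% interval 4.53 to 4.99, adjusted p = 5.1e-10, limma). Its change was larger in size than that of 98.1% of the genes compared. St14 was expressed in both populations, but per kilobase of exon its level was above that of 81.0% of the genes compared in T1 cells and of 13.4% in T2 cells.

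Spint1 (ENSMUSG00000027315.13; chromosome 2, plus strand, 119237362 to 119249527) went the other way. Its normalized counts were 1717, 1495 and 1685 in T1 replicates 1, 2 and 3 and 2737, 2601 and 2622 in T2 replicates 1, 2 and 3, so that every T1 library was below every T2 library. The mean in T2 cells was 1.63 times that in T1 cells. The log2 fold change was -0.70 (95% interval -0.88 to -0.52, adjusted p = 3.4e-05, limma). Spint2 (ENSMUSG00000074227.12; chromosome 7, minus strand, 29256323 to 29281912) had 6184, 6194 and 6471 in T1 replicates 1, 2 and 3 and 4765, 3967 and 4233 in T2 replicates 1, 2 and 3. All T1 libraries were above all T2 libraries, and the means differed by a factor of 1.45. Its log2 fold change was 0.54 (95% interval 0.36 to 0.72, adjusted p = 0.000207, limma). Neither inhibitor reached the fold filter, and both were well expressed in both populations.

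**Figure D2:**
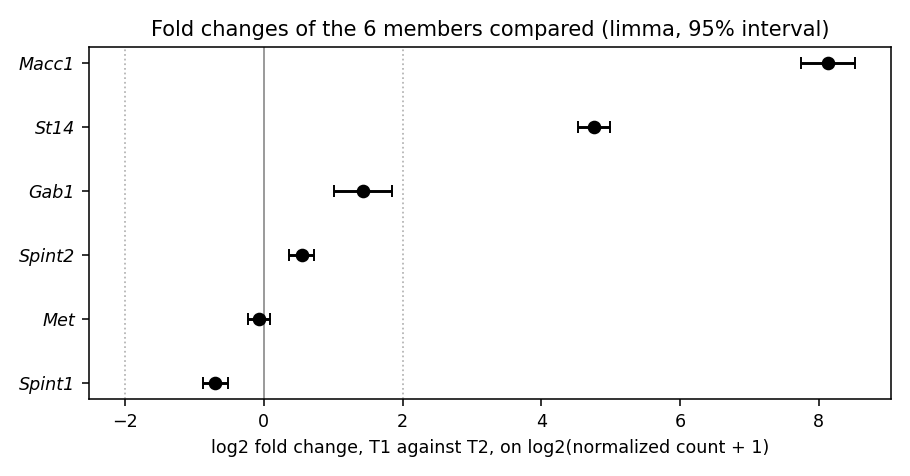
Log2 fold change of T1 against T2 cells for the 6 members compared, with the 95% interval of limma; dotted lines mark the fold filter of 2 in either direction. The interval of Met (-0.23 to 0.09) spans 0, those of Macc1 and St14 lie beyond 2, and that of Spint1 lies below 0.

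The balance of protease and inhibitor RNA was read within each library as a ratio of normalized counts per kilobase of exon, since levels of different genes can be compared only per length. The length merged all annotated exons of a gene (7637 bases for St14, 2767 for Spint1 and 4556 for Spint2). Which transcripts the cells made was not tested. The size of a ratio depends on these lengths, which cancel when a ratio is compared between T1 and T2. The Spint1 to St14 ratio was 1.32, 1.12 and 1.07 in T1 replicates 1, 2 and 3 and 52.1, 52.3 and 51.0 in T2 replicates 1, 2 and 3. With these lengths the inhibitor and the protease were at nearly the same RNA level in T1 cells, and in T2 cells the ratio was 44.4-fold higher. The Spint2 to St14 ratio was 2.88, 2.83 and 2.5 in T1 replicates 1, 2 and 3 and 55.1, 48.5 and 50 in T2 replicates 1, 2 and 3, 18.7-fold higher in T2 cells. For both ratios all T2 libraries lay above all T1 libraries (exact permutation test, two-sided p = 0.1 for each, the smallest that 3 libraries against 3 allow). The same exact permutation test was also run on the Spint1 plus Spint2 to St14 ratio and the Spint2 to Spint1 ratio (p = 0.1 for each). On the log2 scale the T1 minus T2 difference was -5.47 for Spint1 to St14 and -4.23 for Spint2 to St14. St14 alone had a log2 fold change of 4.76, so both ratios mostly restate its difference and are not separate evidence. Spint2 by itself was higher in T1 cells. As a further value chosen after the data were seen, Spint2 exceeded Spint1 2.19 to 2.52 times in the T1 libraries, while in the T2 libraries the Spint2 to Spint1 ratio was 0.927 to 1.06. These are ratios of RNA, and protein or protease activity was not measured here.

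**Figure D3:**
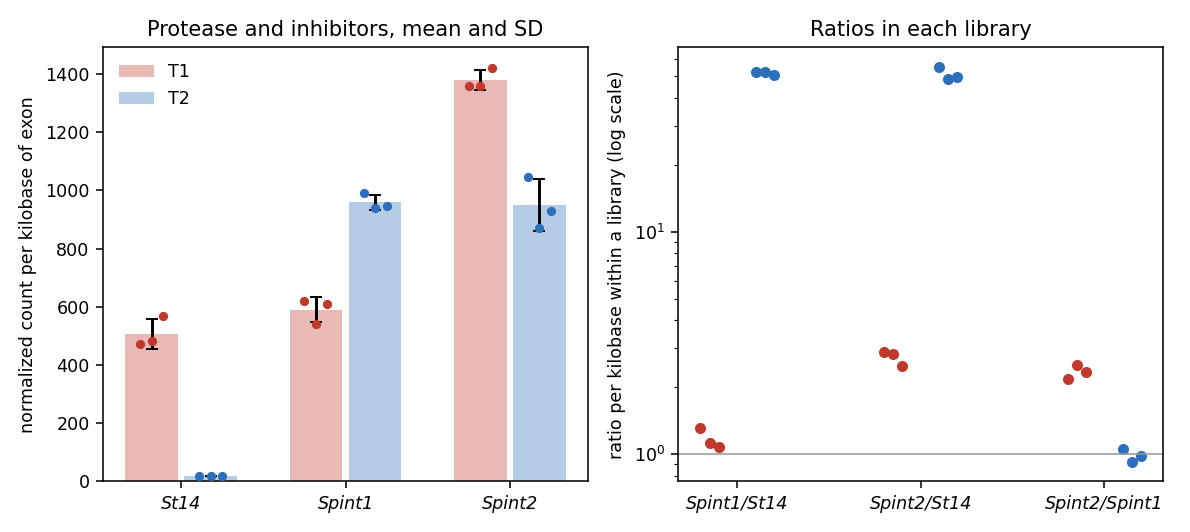
Left, normalized count per kilobase of exon of St14, Spint1 and Spint2 (bars are means, error bars SD, points libraries; T1 red, T2 blue). Right, ratios of these levels within each library on a log axis with a line at 1; Spint1/St14 is 1.07 to 1.32 in T1 and 51.0 to 52.3 in T2 libraries.

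The order of the expressed members by level per kilobase of exon differed between the populations. The order within a population also depends on the exonic lengths used. In T1 cells it was Spint2 (1379 ± 35.8), Spint1 (590 ± 43.3), Met (565 ± 11), St14 (506 ± 53.0), Macc1 (218 ± 14.2) and Gab1 (82.2 ± 17.8; SD, n = 3 each). The ranges of Spint1 and Met overlapped there, as did those of Met and St14. In T2 cells it was Spint1 (959 ± 26.5), Spint2 (949 ± 89.1), Met (593 ± 36.8), Gab1 (30.1 ± 4.80), St14 (18.5 ± 0.510) and Macc1 (0.661 ± 0.0954; SD, n = 3 each). Only the ranges of Spint1 and Spint2 overlapped among neighbours in T2 cells. Met held the middle of both orders, at a level above that of 83.1% of the genes compared in T1 cells and of 83.9% in T2 cells.

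Gab1 (ENSMUSG00000031714.9) lies on the minus strand of chromosome 8 from 80764438 to 80880519. It had 315, 487 and 450 normalized counts in T1 replicates 1, 2 and 3 and 126, 174 and 159 in T2 replicates 1, 2 and 3. All T1 libraries lay above all T2 libraries, but the spread was wider than for the other 5 members compared, with a coefficient of variation of 21.7% in T1 cells and 15.9% in T2 cells. Counting error alone would give 4.84% and 7.99%. Its log2 fold change was 1.43 (95% interval 1.01 to 1.85, adjusted p = 9.19e-05, limma), which did not reach the fold filter. Its exons share 266 bases with Gm31105, an annotated antisense gene, and as the strand setting of the counting is not given in the sources used here, reads of the shared bases cannot be assigned with certainty.

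The other genes of the pathway were read from 6 lists with 76 genes. Of these, 61 were compared, 6 had no read in any library and 9 had reads below the filter. At an adjusted p-value under 0.01, 13 were higher and 14 lower in T1 cells, against 25.1% and 24.4% of all genes compared. With the fold filter 3 were higher (Epcam, F2rl1 and Nrp1) and 2 lower (Tfpi and Sh3kbp1), against 4.17% and 4.2% of all genes. Their median was -0.05 on the log2 scale.

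Of 11 further proteases that process Hgf or act with its activators, only 4 had enough reads, and 1 of these rose at an adjusted p-value under 0.01, beside 25.1% of all genes. Prss8, which encodes prostasin, a membrane-anchored partner of matriptase, was measured at 184 ± 10.1 (T1) and 59.5 ± 11.3 (T2; SD, n = 3 each), with a log2 fold change of 1.62 (adjusted p = 3.14e-05, limma). Plau, the urokinase that can also cut Hgf, was abundant and nearly level, with 1895 ± 202 and 1923 ± 94.0 and a log2 fold change of -0.03 (adjusted p = 0.827, limma). Tmprss4 and Tmprss13, membrane-anchored proteases like matriptase, had 0 reads in every library, and so had Klkb1, F2 and F11 of blood plasma. Of 8 further inhibitors 2 were compared. Tfpi, the inhibitor of the tissue factor pathway, was 10.2-fold higher in T2 cells by group means (36.4 ± 24.3 against 372 ± 35.4), with a log2 fold change of -3.50 (adjusted p = 1.43e-05, limma).

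The list of matriptase substrates held 4 genes, and the 3 compared were higher in T1 (adjusted p-value under 0.01), as were 25.1% of all genes compared. With so few genes the count is a description only. Epcam, an epithelial adhesion molecule, had a log2 fold change of 6.46 (adjusted p = 4.04e-10, limma), and like Macc1 it was on the study's candidate list. F2rl1, the protease-activated receptor PAR2, was measured at 1160 ± 143 (T1) and 146 ± 4.71 (T2; SD, n = 3 each), with a ratio of 7.94 and a log2 fold change of 2.97 (adjusted p = 2.87e-08, limma). Cdcp1, a transmembrane glycoprotein, had 2966 ± 104 and 1682 ± 140, a log2 fold change of 0.82 (adjusted p = 1.45e-05, limma).

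All 14 genes of Met partners and turnover were compared, of which 2 were higher and 7 lower in T1 (adjusted p-value under 0.01), beside 25.1% and 24.4% of all genes compared. Nrp1, a co-receptor for several growth factors, had 2654 ± 634 and 427 ± 59.0 normalized counts in T1 and T2 cells (SD, n = 3 each), and its log2 fold change was 2.62 (adjusted p = 3.9e-07, limma). Ptprj, a phosphatase that acts on Met, had a log2 fold change of 0.84 (adjusted p = 0.000297, limma). Sh3kbp1, which encodes CIN85, an adaptor that links the ubiquitin ligase Cbl to uptake of activated receptors, was 14.6-fold higher in T2 cells by group means, with 350 ± 49.4 in T1 and 5116 ± 475 in T2 cells and a log2 fold change of -3.87 (adjusted p = 3.4e-09, limma). Cbl itself had a log2 fold change of -0.15 (adjusted p = 0.37, limma) and is named here after its value was seen. Itga6 and Itgb4, which together form a laminin receptor that can associate with Met, moved together. Itga6 was 2.99-fold and Itgb4 2.89-fold higher in T2 cells by group means, with log2 fold changes of -1.58 and -1.53. Sdc1, a heparan sulfate proteoglycan, had 4867 ± 651 and 4261 ± 428 and did not pass the threshold (adjusted p = 0.164, limma).

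The 30 genes of Met signalling were all compared, and 0 passed both filters, beside 8.37% of all genes. At an adjusted p-value under 0.01, 5 were higher and 5 lower in T1 cells (limma), beside 25.1% and 24.4% of all genes, and the log2 fold changes ran from -0.94 to 1.52. Pik3cb, a catalytic subunit of PI3 kinase, rose most, with 1679 ± 26.2 and 589 ± 106 normalized counts in T1 and T2 cells (SD, n = 3 each). The small GTPase Hras had a log2 fold change of 0.57 and the kinase Map2k2 of 0.49. Among those that were lower in T1 cells, the adaptor Shc1 had a log2 fold change of -0.94, with 1773 ± 114 and 3401 ± 14.4 normalized counts, the kinase Mapk3 of -0.73 and the phospholipase Plcg1 of -0.72. The kinase Akt1, the most abundant of the list genes that did not pass, had a log2 fold change of -0.17 (adjusted p = 0.0881, limma). The list for Macc1 held 9 genes, among them relatives and regulators but also others such as Cltc. Of the 9 genes 8 were compared, and 3 reached an adjusted p-value under 0.01, beside 49.5% of all genes. Sh3bp4, the closest relative of Macc1, had 2054 ± 143 and 1145 ± 26.1 normalized counts, a log2 fold change of 0.84 (adjusted p = 1.05e-05, limma). Jun, a subunit of AP-1, had a log2 fold change of -1.34 (adjusted p = 0.00192, limma). Its spread was wide, with 3001 ± 968 normalized counts in T1 and 7739 ± 3363 in T2 cells (SD, n = 3 each). Cltc, the clathrin heavy chain, was level at -0.01 (adjusted p = 0.936, limma).

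**Figure D4:**
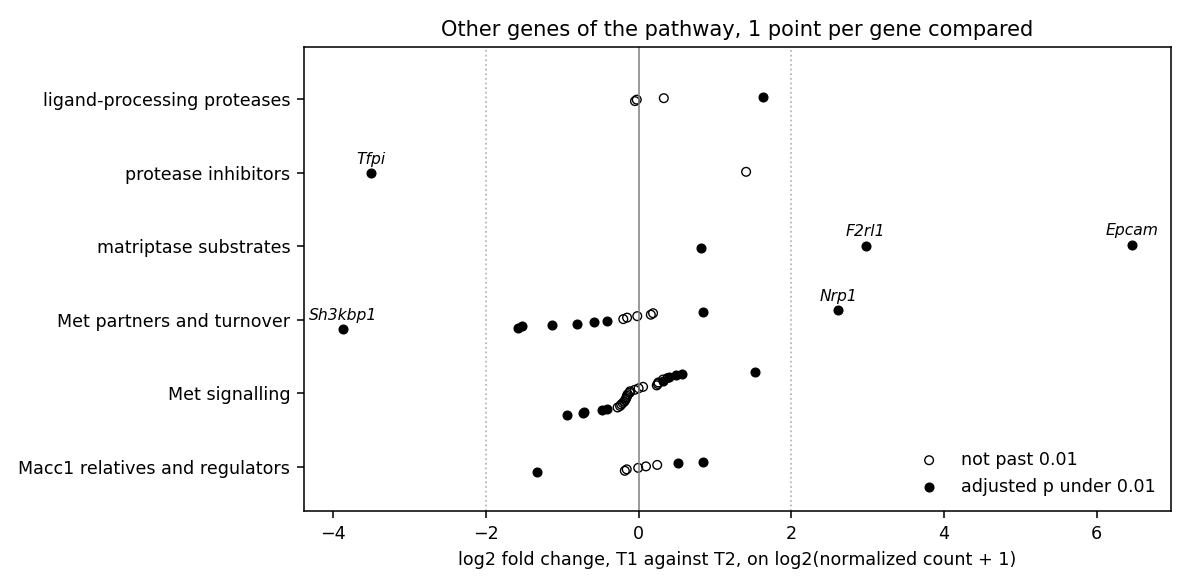
Log2 fold change of T1 against T2 cells for the 61 pathway genes compared, by list; filled points had an adjusted p under 0.01, open points did not, and dotted lines mark the fold filter of 2. Most genes of Met signalling lie within 1 of 0, while Epcam, F2rl1 and Nrp1 are beyond 2 to the right and Tfpi and Sh3kbp1 to the left.

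The genes with the pattern most like that of Macc1 were found by the root mean square difference of log2(normalized count + 1) over the 6 libraries, after each gene's mean was subtracted. The nearest of 11513 genes were Tmem185b (0.25), Mal (0.25) and Lncenc1 (0.30). Tmem185b had 368 ± 24.9 normalized counts and Mal 217 ± 22.3 in T1 cells, and both were at 0 in every T2 library. Lncenc1 had 1784 ± 460 in T1 and 6.25 ± 2.57 in T2 cells (SD, n = 3 each). All 3, like Macc1, passed the filter through T1 alone, so these distances depend on the pseudocount of 1. They too are on the study's candidate list, given in its supplement. Nearest to Met were Arhgap11a (0.02), Mdm2 (0.03) and Ubr1 (0.03), with log2 fold changes of -0.09, -0.07 and -0.04.

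Markers of cell types were read in the same libraries. Of 8 epithelial markers 7 were compared. The summed normalized count of the list was 72400 to 80736 in T1 and 37495 to 43417 in T2 libraries, so the sum was higher in T1 cells. A single value reached 25833, so the sum is weighted to abundant markers and does not give the direction of each. The part of this in the results on Macc1 and St14 was not tested. Of 8 fibroblast markers 4 (Col3a1, Lum, Pdgfrb and Thy1) had 0 reads in every library, and the sum of the list was 21.2 to 40.0 in T1 and 0 to 1.86 in T2 libraries. Col1a1 made up most of it, with 14.8, 27.9 and 24.4 normalized counts in T1 replicates 1, 2 and 3 and 0.979, 0 and 0 in T2 replicates 1, 2 and 3, and Col1a2 had up to 12 reads in a T1 library. Their part in the results on the members was not tested. Leukocyte markers summed to 3.17 to 15.8 and 9.21 to 14.8, with Tyrobp and Cd3e among those at 0, and endothelial markers to 4.88 to 18 and 0.979 to 18.4, with Kdr and Emcn at 0.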

How the data were processed

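RNA of 3 replicates of T1 and 3 of T2 cells was analysed, with groups taken from the sample titles. The authors trimmed adapters with Trimmomatic, used TopHat2 to align reads to mm10 and HTSeq to count them, and took normalized counts from DESeq2. Versions, gene annotation and strand setting are not given in the sources used here. The deposited signal is thus a read count divided by 1 size factor per library. After multiplication by the size factor 100% of values were whole reads (tolerance 0.01). No value column was unused (0). Replicates of a population differed by more than sampling noise (chi-square divided by its degrees of freedom, 7.96 to 25.0).

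limma 3.58.1 in R 4.3.3 was fitted to log2(normalized count + 1) of 11514 genes, with a variance trend and Benjamini-Hochberg adjustment. Calls used an adjusted p-value under 0.01 and, as fold filter, a log2 fold change above 2, after the methods of the study. Exonic lengths, with all annotated exons of a gene merged, came from GENCODE M21 and covered 96.6% of the genes compared, and promoters from RefSeq GRCm38.p6. The fits were tested on simulated data. edgeR 4.0.16 and DESeq2 1.42.0 on recovered reads, other pseudocounts and filters, quantile normalization, the replicate number as a term and left-out replicates were alternatives.

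The members and lists were chosen with earlier results of these data known. All members were named. From each list the text names up to 3 genes per direction with the largest fold change at an adjusted p-value under 0.01 without overlap, and the most abundant gene that did not pass. It also names the 3 genes nearest to Macc1 and to Met. Some genes that this rule selects are not reported here. Figures were drawn with matplotlib 3.10.9.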

Additional observations from a re-analysis of the deposited data

How the results depend on the processing

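For the 6 members compared, every alternative kept the direction and the side of the adjusted p-value threshold of 0.01. The log2 fold change ranged from 7.44 to 8.37 for Macc1, 4.67 to 4.81 for St14, 1.30 to 1.62 for Gab1, 0.48 to 0.62 for Spint2, -0.74 to -0.64 for Spint1 and -0.11 to -0.02 for Met, whose adjusted p-value stayed between 0.251 and 0.798 (limma, edgeR and DESeq2). With each replicate left out in turn, 929 to 970 genes passed both filters and the Spint1 to St14 difference was -5.56 to -5.41, with 0.2 as the smallest exact p that 2 libraries against 3 allow. Thresholds of an adjusted p of 0.05 and a log2 fold change of 1 gave 2445 genes in place of 964, 12 pathway genes in place of 5 and 3 members in place of 2, by construction. edgeR and DESeq2 on recovered reads each called 974 genes.

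Replicates with the same number had deviations correlated at 0.0575, 0.172 and 0.104. T2 replicates 2 and 3 correlated best with the T1 replicate of the same number. T2 replicate 1 correlated slightly better with T1 replicate 3 (0.0719) than with T1 replicate 1. Pairs with different numbers ran from -0.152 to 0.0719. These values do not settle whether the numbers pair the libraries, so the number was left out of the main fit. With the replicate number as a block 967 genes, 2 members and 5 pathway genes passed both filters, the log2 fold change of Met was -0.07, and no member changed its call. The differences of the ratios under the block were -5.47 and -4.23 (exact sign-flip permutation p = 0.25, the smallest for 3 pairs). The planned Mst1r to Met ratio was not run, because Mst1r had no read in 5 libraries. Depth limits Hgf, Hpn, Hgfac and Mst1r, whose differences were not detectable at these reads, and the size of the Macc1 fold, which rests on 5 or 6 reads in each T2 library.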
